A study of Mus musculus with 6 samples.

Results

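A pair of lines labelled as melanocyte-derived, both carrying the K641E form of Kit and named mKitK641E(T) and mKitK641E(PT), was compared across all genes on the array. The comparison uses 4 of the 6 arrays of the series, chosen by their labelled line, with 2 arrays for each mutant line, called T and PT here. The remaining 2 arrays, of the vector line mVec, served to say on which side of the mutant lines the vector line lay, and they also entered the estimate of the spread. Each array gave values for 22206 gene probe sets. Of these, 19505 stand for 1 gene symbol each, taking the probe set with the highest mean over the 6 arrays where a symbol had several.

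All 3 lines are described as descendants of the mouse line melan-a, which consists of immortalized melanocytes with a C57BL/6J background. They were grown untreated in RPMI medium with 10% serum. The labels describe mVec as melanocytes with a control vector, and T and PT as melanoma cells that mutant Kit transformed. In the titles the T arrays appear as C3# and those of PT as hi exp, and no source used here explains T, PT or these titles. Each group is 1 line, so an error or p-value below measures the spread between arrays of a line, which may be technical, and not the spread between lines made in the same way.

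Kit is the receptor tyrosine kinase through which stem cell factor, its ligand Kitl, supports the survival, migration and division of melanocytes. On activation it feeds the RAS-ERK and phosphoinositide 3-kinase pathways, and K641E is a substitution in its kinase domain that activates the receptor without ligand. Activated ERK induces its own inhibitors, among them the DUSP phosphatases and the Sprouty proteins, and its targets include the ETV transcription factors and cell cycle genes.

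The values are log2 expression levels, and every difference below is T minus PT on that scale with the standard error of the limma fit. A gene was called at a Benjamini-Hochberg adjusted p under 0.05 in limma's moderated test. Each array has 5222 probe sets made as negative controls, and their 95th percentile served as its background limit, which lay between 8.74 and 9.16, with 29.0% to 32.6% of gene probe sets above it. Over all genes, the T and PT arrays did not overlap for 9955, or 51%, so that a lack of overlap is no rare event. A line counted as above background when both of its arrays passed their limits and as at background when neither did. For a gene at background in 1 line, the fold is given as the least that the limit allows, and for a gene at background in both lines no fold is given. Across probe sets the 2 arrays of a line correlated at r = 0.993 in T and 0.994 in PT, and T arrays with PT arrays at 0.982 to 0.989, against 0.912 to 0.935 between mutant and vector arrays. The median absolute difference was 0.264 between the T arrays and 0.239 between the PT arrays. Between T and PT arrays it was 0.272 to 0.398, so that its lowest value was close to that between the T arrays. T replicate 2 stood apart in its hybridization control bioB, with a log2 value of 9.35 against 7.79 to 8.41 on the other arrays. In bulk RNA, fewer cells of a type and less RNA per cell cannot be told apart.

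The melanocyte identity given in the labels was checked against its defining genes. Most of them were at background in every line, so that they do not bear out the identity, which is taken from the labels. The lineage transcription factor Sox10, the transporter Slc45a2, the melanosome proteins Mlana and Pmel and the pigment enzymes Dct, Tyr and Tyrp1 were at background on all 6 arrays. Pax3, a transcription factor of melanocyte precursors, was above background in all 3 lines, with log2 values of 12.37 and 12.03 in T, against 12.87 and 12.70 in PT and 14.13 and 14.06 in mVec. Mitf, the master regulator of melanocytes, lay near the limit, at 9.01 and 9.10 in T, against 8.99 and 8.74 in PT and 7.98 and 8.07 in mVec. Its T minus PT difference of 0.19 ± 0.20 did not pass the test (limma adjusted p = 0.637).

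**Figure D1:**
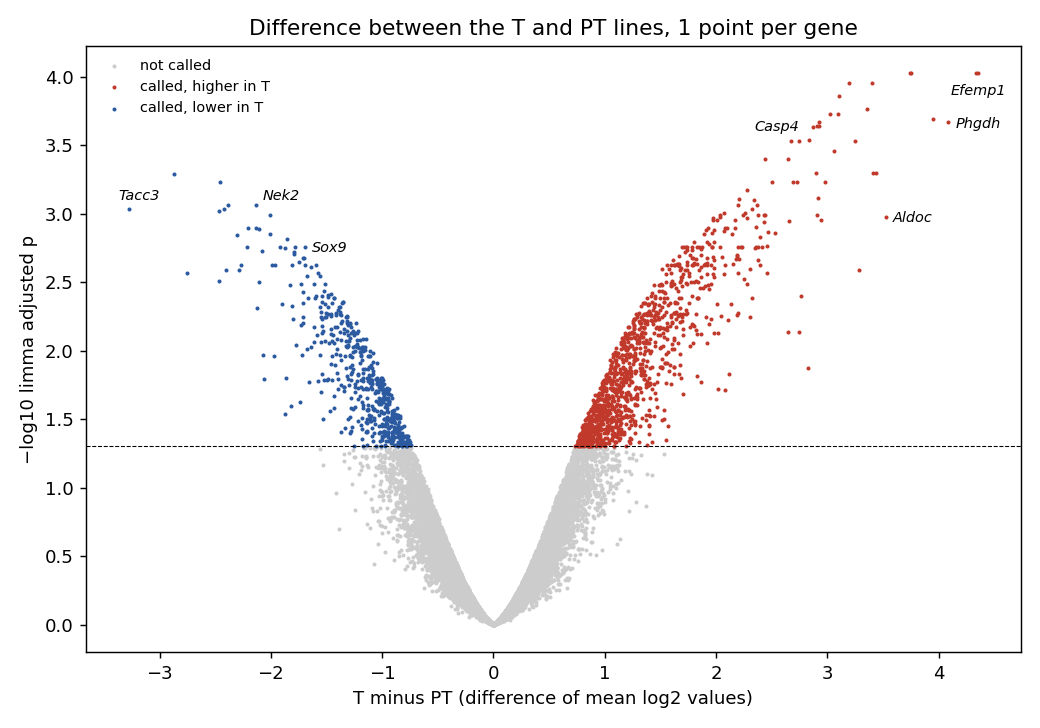
Each point is 1 of 19505 genes. The horizontal axis is the T minus PT difference of mean log2 values, the vertical axis is −log10 of the limma adjusted p, and the dashed line marks 0.05. Of the called genes, 1164 lie on the right, higher in T, and 546 on the left, lower in T.

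T and PT differed at 1710 of 19505 genes, which is 8.77% of them. Of these, 1164 genes (5.97%) were higher in T and 546 (2.8%) were lower. The genes higher in T included those for matrix and contractile proteins, sterol synthesis enzymes, glutathione transferases and the serine synthesis enzyme Phgdh. Those lower in T, and so higher in PT, included genes of mitosis, replication-dependent histones of the H2B class and some ribosome assembly factors. Over all probe sets the test called 1857, or 8.36%, with 1258 higher (5.67%) and 599 lower (2.7%) in T, and the median difference of all probe sets was -0.04. In 517 of the called genes both lines were at background, so that their levels are uncertain. The number of called probe sets depended on single arrays: it was 1857 with all arrays, 659 without T replicate 2, 549 without PT replicate 1 and 801 without PT replicate 2.

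More genes were above background in T and at background in PT than the reverse. In all, 243 genes were above background in T and at background in PT, of which 160 were called, and 64 showed the reverse, of which 47 were called. The limits were 8.93 and 8.74 on the T arrays, against 9.16 and 8.86 on those of PT. With limits at the 75th percentile the counts were 178 and 86. Some of the 243 lay close to the limit in both lines, such as Mitf, which was not called (0.19 ± 0.20). On these calls the lines are separated by a detection limit, and the folds are the smallest that the limit allows.

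Cell division genes were lower in T than in PT. Of 27 measured genes of mitosis, 18 fell in T and 0 rose, against a background of 2.8% lower calls over all genes, and the median difference was -1.25 against -0.03 for all genes. Ndc80, a kinetochore protein that binds microtubules, had log2 values of 10.21 and 10.06 in T, against 12.72 and 12.39 in PT and 7.41 and 6.96 in mVec. It fell by 2.42 ± 0.23 in T, a 5.34-fold difference (limma adjusted p = 0.000928). The T and PT arrays did not overlap, and both mVec arrays lay below T. Nek2, a kinase of the centrosome that is not in the list, was named for the size of its fall. It read 10.92 and 10.76 in T against 12.90 and 13.05 in PT (-2.14 ± 0.20, adjusted p = 0.000869), with mVec lower still at 8.98 and 9.13. Cdca8, a subunit of the chromosomal passenger complex that corrects wrong microtubule attachments, differed by -2.10 ± 0.28 (adjusted p = 0.00314). Cenpa, the histone variant that marks the centromere, differed by -1.92 ± 0.22, and the spindle assembly factor Tpx2 by -1.79 ± 0.21. For each of these 5 genes the vector line lay below both mutant lines.

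Further cell cycle genes lay outside that list and were named for their brightness in PT alone or, for Nusap1, for the size of the fall. Tacc3, which cross-links spindle microtubules, had values of 6.96 and 7.01 in T and 9.76 and 10.76 in PT, and was at least 2.69-fold lower in T (-3.28 ± 0.32, limma adjusted p = 0.000928). Spdl1, an adaptor that brings dynein to kinetochores, was lower in T by at least 3.34-fold. Prr11, a gene expressed late in the cell cycle, was lower in T by at least 3.15-fold. Mybl2, the B-Myb transcription factor that switches on late cell cycle genes, read 8.33 and 8.34 in T against 9.77 and 9.99 in PT, and was at least 2.06-fold lower in T. Nusap1, a microtubule-bundling protein of the spindle, was above background in both lines and fell by 2.01 ± 0.22 in T (adjusted p = 0.00141). In mVec all 5 were at background, with values below those of T.

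Other cell cycle genes were not called. The mitotic kinase Cdk1 read 11.45 and 11.63 in T and 11.33 and 11.75 in PT, so that the arrays of the lines overlapped (difference -0.01 ± 0.29, limma adjusted p = 0.994). Mki67, the proliferation marker, differed by -0.86 ± 0.25, with T and PT arrays that did not overlap. It did not pass with the main settings (adjusted p = 0.0679) but passed in 4 of 14 alternatives, in a range from 0.0198 to 0.346. Of 28 DNA replication genes, 5 fell in T and 0 rose (median -0.67), or 17.9% against 2.8% lower calls over all genes. The helicase subunit Mcm3 was the one with a call in every alternative among the named members, at 12.18 and 12.14 in T against 13.54 and 13.85 in PT (-1.54 ± 0.24, adjusted p = 0.00583), and the sliding clamp Pcna differed by -0.01. Without T replicate 1, T replicate 2, PT replicate 1 or PT replicate 2 the replication count was 2, 3, 1 and 1. The mitosis count was 10 without T replicate 2, 11 without PT replicate 1 and 10 without PT replicate 2, and it was 17 without T replicate 1.

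**Figure D2:**
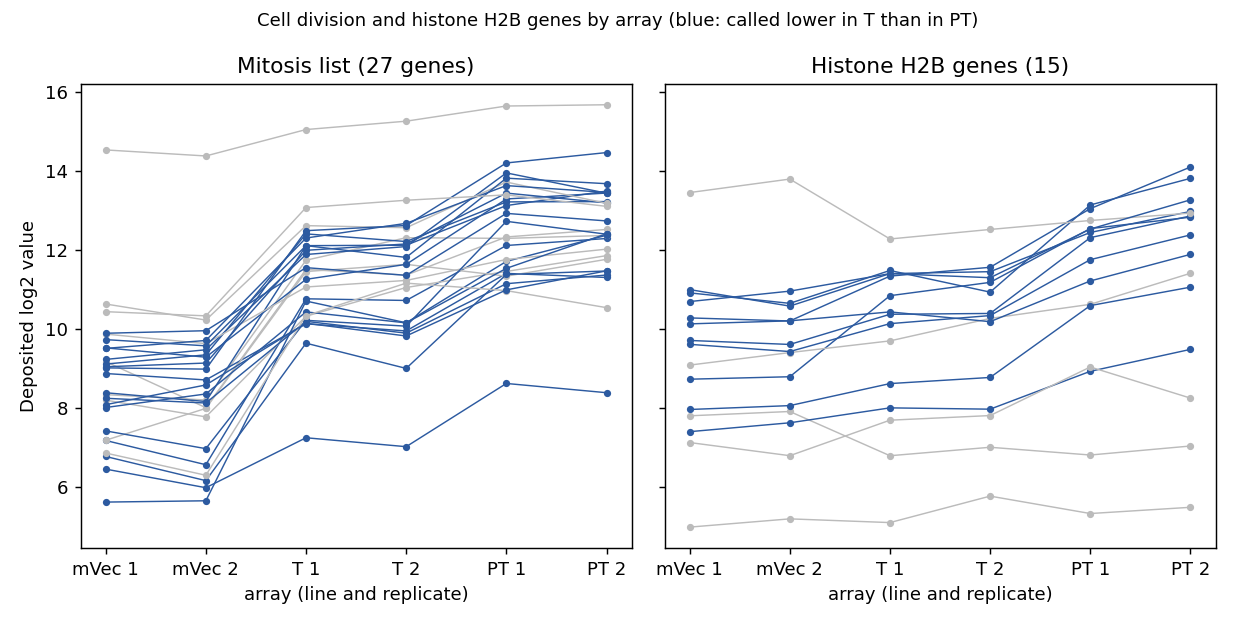
Deposited log2 values on the 6 arrays for 27 mitosis genes (left) and 15 histone H2B genes (right). A line joins the values of 1 gene, blue lines are genes called lower in T than in PT (18 and 10), and grey lines are the others.

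Histone genes of the H2B class were lower in T as well. They were singled out after their values were seen, because 3 of them were among the 10 largest falls with both lines above background. Histones package DNA, and most genes of the H2A, H2B, H3 and H4 classes are transcribed in S phase from clusters of near-identical copies, so that a probe set may not tell all copies apart. Of 15 measured H2B genes, 10 fell in T and 0 rose, with a median difference of -1.28. Over all genes, 2.8% were called lower in T and the median was -0.03. The other core classes gave smaller values, with 5 of 13 H2A genes called lower (median -0.86), 0 of 12 H3 genes (median -0.38) and 0 of 12 H4 genes (median -0.49). The H3 genes include the variants H3f3a and H3f3b, at 0.11 and 0.43, and H3c14 and H3c15, whose values were identical on all 6 arrays. The H2B count was 6 without T replicate 2, between 7 and 10 without any other single array, and the H2A count was 2, 0, 1 and 0 without T replicate 1, T replicate 2, PT replicate 1 and PT replicate 2, and 3 without either mVec array.

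The upstream sequences of 4 H2B genes are shown because an octamer, a known promoter element of H2B genes, stands close to their starts. They are the 4 called genes among the 6 that hold it. They come from RefSeq on GRCm38.p6, run 5′ to 3′ on the + strand and end at the base before the annotated gene start, and capitals mark the octamer ATTTGCAT. The positions are chr13:22035671-22035820 for H2bc12, chr13:21721894-21722043 for H2bc14, chr3:96269550-96269699 for H2bc18 and chr13:23746584-23746733 for H2bc3.
H2bc12: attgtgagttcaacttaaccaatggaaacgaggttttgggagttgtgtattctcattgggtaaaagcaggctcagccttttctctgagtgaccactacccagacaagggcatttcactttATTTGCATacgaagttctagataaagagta
H2bc14: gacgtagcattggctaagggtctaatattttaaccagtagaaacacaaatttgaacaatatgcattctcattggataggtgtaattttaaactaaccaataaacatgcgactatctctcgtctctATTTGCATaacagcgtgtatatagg
H2bc18: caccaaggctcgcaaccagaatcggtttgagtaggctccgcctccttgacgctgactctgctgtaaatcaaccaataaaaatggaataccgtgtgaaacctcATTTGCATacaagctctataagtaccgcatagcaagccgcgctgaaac
H2bc3: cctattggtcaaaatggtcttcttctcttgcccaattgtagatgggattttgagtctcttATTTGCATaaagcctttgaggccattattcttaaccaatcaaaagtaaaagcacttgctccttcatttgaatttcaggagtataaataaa
The octamer begins 30, 25, 48 and 90 bases before the start in this order. Searched on both strands of the 250 bases upstream, ATTTGCAT was present in 6 of the 13 H2B genes with a RefSeq entry, in 0 of 11 H4 genes and in 1.81% of all 27025 genes. The other H2B genes with the octamer, H2bc1 and H2bc8, were not called (0.03 and -1.03), and H2bc11, with the largest fall (-2.27), and 5 further called H2B genes lack it in this window. The letters CCAAT were present in 13 of 13 H2B genes, in 18 of 23 mitosis genes and in 37.5% of all genes. A match is a description of the sequence and not evidence that a factor binds there.

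The levels of these 4 genes were as follows. H2bc12 had log2 values of 11.33 and 11.55 in T, against 13.04 and 14.09 in PT and 10.27 and 10.19 in mVec, and fell by 2.12 ± 0.32 in T (limma adjusted p = 0.00485). H2bc14 read 10.36 and 10.38 in T against 12.30 and 12.85 in PT (-2.21 ± 0.23, adjusted p = 0.00127). H2bc18 differed by -1.68 (adjusted p = 0.00283) and H2bc3 by -2.13 (adjusted p = 0.00128), the latter with T arrays at 8.61 and 8.76 and PT arrays at 10.58 and 11.05. In all 4 the T and PT arrays did not overlap and mVec lay below both, as it did for H2bc11, which read 11.47 and 10.92 in T and 13.13 and 13.80 in PT.

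Brakes on the cell cycle were called in both directions, at 42.9% of the listed inhibitors of cyclin-dependent kinases against 8.77% over all genes. Of 7 inhibitors of cyclin-dependent kinases, 2 rose and 1 fell in T, and the count of 2 was 1 on leaving out any single array other than T replicate 1. Cdkn1b, which encodes p27, had log2 values of 10.54 and 10.65 in T, against 8.42 and 9.05 in PT and 13.43 and 13.76 in mVec. It was 1.86 ± 0.26 higher in T (limma adjusted p = 0.00347), with 1 of the PT arrays above background. Cdkn1a, which encodes p21 and is a target of p53, went the other way, at 12.60 and 12.52 in T against 14.03 and 13.63 in PT (-1.27 ± 0.25, adjusted p = 0.0144). Leaving out T replicate 2 ended that call (adjusted p = 0.0831), as did leaving out PT replicate 1 (0.115), with a range over all alternatives from 0.00116 to 0.115. The T arrays of Cdkn1a lay within the values of mVec, 12.95 and 12.43. Cdkn2a, the locus of p16 and p19ARF, read 11.73 and 11.56 in T and 11.66 and 11.88 in PT, and its difference of -0.12 ± 0.20 did not pass.

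Targets of p53 were called in both directions, with 4 of 18 higher and 3 lower in T (median 0.02), or 38.9% called against 8.77% over all genes. Ccng1, a cyclin induced by p53, was 1.66 ± 0.23 higher in T (limma adjusted p = 0.00366) and Eda2r, a receptor of the TNF receptor family, 1.39 ± 0.21 higher. The death receptor Tnfrsf10b and the kinase Plk3 were lower, by -1.54 ± 0.22 and -1.49 ± 0.23. These 4 differences were called in every alternative tried. Tnfrsf10b was among the genes at background in the vector line, with 4.33 and 4.29 in mVec against 11.56 and 11.15 in T and 13.02 and 12.78 in PT. Without T replicate 2 or PT replicate 1, 2 of the 18 were called higher and 2 lower. Without PT replicate 2 the higher count was also 2.

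Some ribosome assembly genes were lower in T, in a count that rested on single arrays. Of 28 genes of ribosome biogenesis and the Myc network, 5 fell and 1 rose in T (median -0.10), or 21.4% called against 8.77% over all genes. Rrp12, a factor in the export and maturation of ribosomal subunits, read 10.43 and 10.68 in T against 11.93 and 12.12 in PT (-1.48 ± 0.26, limma adjusted p = 0.00872). Its call was lost without PT replicate 1 (adjusted p = 0.0544) and without PT replicate 2 (0.065), in a range from 0.00213 to 0.065. The count of 5 was 3 without T replicate 1 or without either mVec array, 1 without T replicate 2 or PT replicate 1 and 0 without PT replicate 2, and the 1 rise was lost on leaving out any single array other than T replicate 1. Myc, the transcription factor that drives these genes, read 15.32 and 15.46 in T and 15.58 and 15.89 in PT, and its difference of -0.34 ± 0.21 did not pass (adjusted p = 0.387).

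Genes of proximal Kit signalling were called between the lines at a share near that over all genes, and Kit itself gave no reading. The Kit probe set was at background on all 6 arrays, at 4.53 and 5.18 in T, against 4.53 and 3.84 in PT and 4.68 and 4.97 in mVec. Its difference of 0.67 ± 0.30 did not pass (limma adjusted p = 0.225), so that the arrays give no reading of the introduced receptor in either line. The ligand Kitl was bright and overlapped between lines, at 12.72 and 12.86 in T and 13.03 and 12.66 in PT (-0.06 ± 0.22, adjusted p = 0.915). Of 27 measured genes of the Kit receptor and its proximal signalling, 1 rose and 1 fell in T (median 0.01), a share of 7.41% against 8.77% over all genes. The rise was of Pik3r1, a regulatory subunit of phosphoinositide 3-kinase (1.21 ± 0.21, adjusted p = 0.00868), but its call ended on leaving out T replicate 2 (adjusted p = 0.0507) or PT replicate 2 (0.0625), in a range from 0.000877 to 0.0625. The fall, of the adaptor Gab2, named after its value was seen and at background in both lines, was lost whichever array was left out.

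Genes that report on ERK activity divided between the lines. Of 22 ERK targets and feedback inhibitors, 5 rose and 2 fell in T (median 0.11), or 31.8% called against 8.77% over all genes, where 5.97% were higher and 2.8% lower. Egr1, an immediate early transcription factor, had log2 values of 12.79 and 12.47 in T, against 10.64 and 10.90 in PT and 14.88 and 14.77 in mVec, and rose by 1.86 ± 0.22 in T (limma adjusted p = 0.0018). It was the 1 call in a list of 14 genes sensitive to RNA handling, of which 11 had a higher value in T (median 0.32, against -0.03 for all genes) and 2 were called with the replicate block. The part of handling in its difference was not tested. Spry4, a Sprouty inhibitor of the pathway, was 1.32 ± 0.25 higher in T (adjusted p = 0.0124), and the transcription factor Etv5 1.07 ± 0.24 higher (adjusted p = 0.026). The receptor Epha2 went the other way, at 13.53 and 13.68 in T against 14.74 and 15.16 in PT (-1.34 ± 0.22, adjusted p = 0.00694). The ERK phosphatase Dusp6, at 11.62 and 11.50 in T and 11.36 and 11.42 in PT, differed by 0.17 ± 0.20 and did not pass (adjusted p = 0.679). Of these 4 calls, that of Egr1 held in every alternative. Spry4 and Etv5 lost theirs without T replicate 2 (adjusted p = 0.0788 and 0.148), PT replicate 1 (0.0614 and 0.142) and PT replicate 2 (0.0806 and 0.0987), and Epha2 without PT replicate 2 (0.0533). Their ranges over all alternatives were 0.00298 to 0.0806, 0.00259 to 0.148 and 0.00043 to 0.0533. The count of 5 fell to 1 without T replicate 2, 2 without PT replicate 1 and 1 without PT replicate 2, and that of 2 to 1, 1 and 0.

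A feedback inhibitor of another branch, cytokine signalling, was among the largest rises. Socs2, which restrains JAK-STAT signalling, read 12.60 and 13.31 in T, against 10.54 and 10.44 in PT and 13.75 and 14.08 in mVec, a 5.53-fold difference between the mutant lines (2.47 ± 0.27, limma adjusted p = 0.00136). The vector arrays lay above both.

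**Figure D3:**
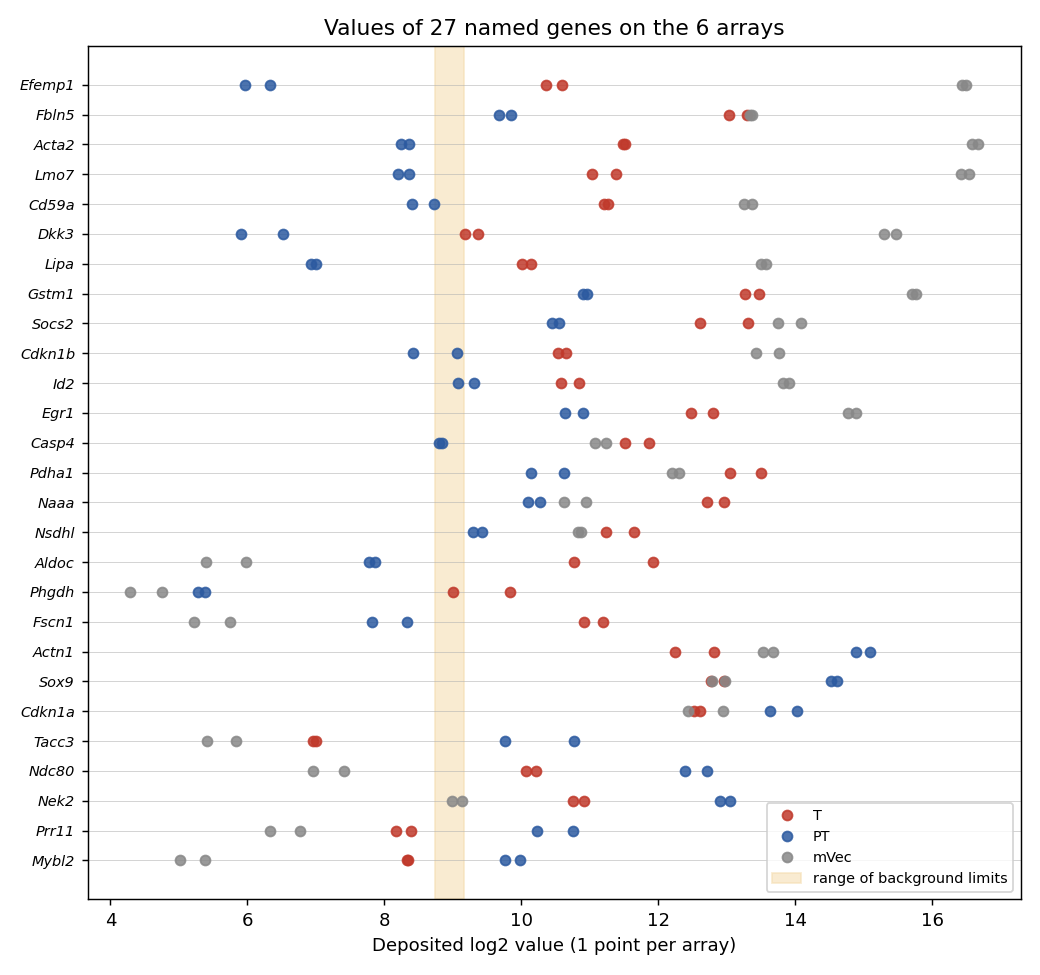
Deposited log2 values of 27 named genes, with 1 point for each array in red (T), blue (PT) and grey (mVec). The shaded band spans the background limits of the arrays, 8.74 to 9.16. The 27 genes were picked among called genes, so that their T and PT points do not overlap, as is so for 51% of all genes.

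Some matrix genes were higher in T. Of 32 matrix glycoproteins, proteoglycans and laminins, 9 rose and 1 fell in T (median 0.15), against a background of 5.97% higher calls. The fall, of Tnc, was lost without PT replicate 1 (limma adjusted p = 0.0669) and PT replicate 2 (0.0632), in a range from 0.00164 to 0.0669. Efemp1, a fibulin of elastic fibres, had log2 values of 10.36 and 10.60 in T, against 6.32 and 5.97 in PT and 16.43 and 16.49 in mVec. The T line was at least 2.77-fold higher (4.33 ± 0.22, limma adjusted p = 9.49e-05). Fbln5, another fibulin of elastic fibre assembly, read 13.04 and 13.30 in T, against 9.67 and 9.86 in PT and 13.33 and 13.37 in mVec. It was 10.6-fold higher in T (3.40 ± 0.21, adjusted p = 0.000112). For Efemp1 the T arrays lay far below the vector line, and for Fbln5 they lay just under it. Of the called genes of this list, 6 were at background in both mutant lines, among them the lysyl oxidase Lox and the TGF-beta-induced Tgfbi, both above background in mVec. The collagen gene Col3a1 was at least 1.10-fold higher in T (2.38 ± 0.27) and was the 1 call among 21 collagens, of which 19 were at background in both lines.

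Some secreted proteases and genes of the WNT, TGF-beta and BMP pathways were higher in T. Mmp19, a matrix metalloproteinase, read 10.58 and 10.99 in T, against 7.39 and 8.30 in PT and 11.89 and 11.81 in mVec, and was at least 3.42-fold higher in T (2.94 ± 0.30, limma adjusted p = 0.00111). Dkk3, a secreted protein of the Dickkopf family, was at least 1.20-fold higher (3.06 ± 0.25, adjusted p = 0.000346), with T arrays at 9.18 and 9.36, just above the limit, and mVec at 15.29 and 15.47. Id2, a BMP-induced inhibitor of differentiation factors, rose by 1.51 ± 0.21 (adjusted p = 0.00366), with T at 10.58 and 10.84, PT at 9.31 and 9.08, and mVec at 13.91 and 13.82. In these lists, 5 of 22 matrix proteases and inhibitors, 5 of 25 WNT genes and 5 of 23 TGF-beta and BMP targets were called higher in T and 0 lower, or 22.7%, 20% and 21.7% against 5.97% higher calls over all genes. Of these 15 calls, 8 were of genes at background in both lines. The protease and WNT counts were 2 without T replicate 2 and without PT replicate 1, where the TGF-beta count was 3, and the WNT count was 3 without PT replicate 2.

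Some genes for contractile and adhesion proteins also separated the lines. Of 24 integrin and focal adhesion genes, 1 was called higher and 1 lower in T (median -0.16), or 8.33% against 8.77% over all genes. Of 29 cadherins and adhesion molecules, 5 were called higher and 1 lower (20.7%), with both lines at background for 4 of these calls. Acta2, smooth muscle actin, had log2 values of 11.49 and 11.52 in T, against 8.25 and 8.36 in PT and 16.58 and 16.67 in mVec. The T line was at least 5.62-fold higher (3.20 ± 0.20, limma adjusted p = 0.000112). Lmo7, a LIM domain protein of adherens junctions, was at least 4.58-fold higher, and Fscn1, the actin-bundling protein of filopodia, at least 4.12-fold higher in T. For Acta2 and Lmo7 the vector line was higher than both, but Fscn1 was at background in mVec, at 5.75 and 5.22, and at 10.92 and 11.19 in T. Actn1, the actin cross-linker of focal adhesions, went the other way, at 12.81 and 12.24 in T, against 14.88 and 15.09 in PT and 13.67 and 13.53 in mVec. It fell by 2.46 ± 0.24 in T (adjusted p = 0.00096), with the vector line between the mutant lines. Marcks, a substrate of protein kinase C that binds the plasma membrane and actin, was 5.08-fold higher in T (2.34 ± 0.22, adjusted p = 0.000799).

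Smooth muscle and fibroblast markers were examined because Acta2 and Col3a1 mark those cell types. Of 14 smooth muscle markers, 3 rose in T and 0 fell (21.4% against 5.97% higher calls over all genes), namely Acta2, Tpm2 and Des, and Des was at background in both lines. The count was 1 without T replicate 1, T replicate 2 or PT replicate 1. Of 11 fibroblast markers, 2 rose in T (18.2%), Col3a1 and Fap, and Fap was at background in both lines, at 6.18 and 6.52 in T and 3.76 and 4.90 in PT, and the count was 1 without T replicate 2. Their part in the matrix and actin differences was not tested. Of the 11 fibroblast markers, 8 were above background in mVec, 4 in T and 2 in PT. Of the 14 smooth muscle markers, 4 were above it in mVec, 5 in T and 4 in PT. None of 19 keratinocyte and epithelial, 12 leukocyte, 10 endothelial or 9 mast cell markers was called between the lines, against 8.77% over all genes. All of them but the mast cell markers, and 8 of those 9, were at background in both lines, so that the lack of calls says little.

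Enzymes of cholesterol synthesis were higher in T. Of 21 measured genes of cholesterol synthesis and uptake, 9 rose in T and 0 fell, a share of 42.9% against 5.97% higher calls over all genes, and the median difference was 0.70. Nsdhl, which removes methyl groups from the sterol ring, had log2 values of 11.23 and 11.65 in T, against 9.29 and 9.43 in PT and 10.87 and 10.83 in mVec. It was 4.23-fold higher in T (2.08 ± 0.22, limma adjusted p = 0.00127). Hmgcs1, the synthase at the entry of the mevalonate pathway, read 14.19 and 13.91 in T, against 12.48 and 12.28 in PT and 13.90 and 13.77 in mVec (1.67 ± 0.21, adjusted p = 0.00242). For both genes the vector arrays fell between the mutant lines and nearer T. Fdps, which makes farnesyl diphosphate, was at least 2.24-fold higher in T (1.79 ± 0.23), and Insig1, the sterol sensor that restrains the pathway, 3.18-fold higher (1.67 ± 0.20). Fdps was at background in mVec and in PT, and Insig1 was highest in mVec. Srebf2, the transcription factor of the pathway, did not separate the lines, at 15.59 and 15.49 in T and 15.60 and 15.64 in PT (-0.08 ± 0.20), and the enzymes Sqle and Msmo1 were not called. Leaving out 1 mutant array gave counts of 6 or 7.

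The upstream sequence of Hmgcs1 is shown as an example of a sterol gene in which a search found TCACNCCAC, the core of a sterol regulatory element. It comes from RefSeq on GRCm38.p6, at chr13:119690201-119690350 on the + strand, ends at the base before the gene start, and has the match in capitals.
Hmgcs1: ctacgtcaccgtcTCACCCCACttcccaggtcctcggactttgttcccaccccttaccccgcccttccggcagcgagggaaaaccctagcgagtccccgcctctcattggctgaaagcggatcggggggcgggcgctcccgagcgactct
The match begins 137 bases before the start. Over 250 bases upstream and both strands, these letters stood in 1 of the 16 cholesterol genes with a RefSeq entry and in 1.22% of all genes, and CCAAT in 15 of the 16 against 37.5% of all genes.

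Some genes of glutathione metabolism and other NRF2 targets were higher in T. Of 26 measured genes, 10 rose and 0 fell (median 0.48), or 38.5% against 5.97% higher calls over all genes, and 4 of the 10 were at background in both lines. Gstm1, a glutathione transferase, had log2 values of 13.26 and 13.47 in T, against 10.96 and 10.90 in PT and 15.71 and 15.76 in mVec, a 5.42-fold difference (2.44 ± 0.20, limma adjusted p = 0.000399). Its relative Gstm2 was 3.10-fold higher in T (1.63 ± 0.21, adjusted p = 0.00238), again with mVec above both. Slc7a11, the cystine transporter that feeds glutathione synthesis, rose by 1.36 ± 0.23, with mVec below both lines at 11.44 and 11.22. Its call was lost without PT replicate 1 (adjusted p = 0.0666, in a range from 0.00041 to 0.0666). The glutathione synthesis subunits Gclc and Gclm, also targets of NRF2, differed by 0.10 and 0.20 and were not called. The count of 10 was 5 without PT replicate 1 and 7 to 10 without any other single array.

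Serine synthesis was represented by 1 call, of Phgdh, beside enzymes that were not called. Phgdh, the first enzyme of serine synthesis from glucose, had log2 values of 9.00 and 9.83 in T, against 5.38 and 5.28 in PT and 4.29 and 4.75 in mVec. T replicate 1 lay just above its limit of 8.93 and both PT arrays were at background. Against the limit, T was at least 1.32-fold higher, and the difference of measured values was 4.09 ± 0.29 (limma adjusted p = 0.000216). Psat1 and Psph, the enzymes that follow Phgdh in the pathway, were bright in both lines. Psat1 read 16.36 and 15.93 in T and 16.23 and 16.30 in PT, and Psph 12.98 and 12.88 in T and 13.47 and 13.61 in PT, and neither difference passed. The list for the integrated stress response and amino acid synthesis had 31 measured genes, of which 5 rose and 2 fell (median 0.16), or 22.6% called against 8.77% over all genes. Asns and Trib3, induced by the transcription factor Atf4, were not called. Among the falls was Shmt1, at 10.11 and 10.04 in T against 11.79 and 12.30 in PT (-1.97 ± 0.36, limma adjusted p = 0.011). Its call did not hold in every alternative. The higher count was 2 without PT replicate 1. The lower count was 1 without T replicate 1 or PT replicate 1 and 0 without T replicate 2 or PT replicate 2.

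Some genes of central carbon metabolism were higher in T. Aldoc, an aldolase of glycolysis, had log2 values of 10.77 and 11.93 in T, against 7.78 and 7.87 in PT and 5.40 and 5.98 in mVec, and was at least 5.04-fold higher in T (3.52 ± 0.36, limma adjusted p = 0.00106). Pdha1, the subunit of pyruvate dehydrogenase that links glycolysis to the citric acid cycle, read 13.05 and 13.51 in T, against 10.13 and 10.62 in PT and 12.31 and 12.20 in mVec. It was 7.46-fold higher in T (2.90 ± 0.25, adjusted p = 0.000505). Aldoc was at background in the vector line, whereas for Pdha1 the vector line lay between the mutant lines. Of 31 genes of glycolysis and hypoxia, 5 rose and 0 fell (median 0.17), or 16.1% against 5.97% higher calls over all genes, but the count was 3 without T replicate 1, PT replicate 2 or either mVec array and 1 without T replicate 2 or PT replicate 1. None of 29 respiratory chain genes was called by limma, with differences from -0.57 to 0.95.

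Single genes of the lysosome and the secretory pathway were higher in T. As a list, the lysosome genes were called at 8%, against 8.77% over all genes. Lipa, the acid lipase of the lysosome, read 10.00 and 10.14 in T, against a mean of 6.97 in PT, whose arrays were both at background, and 13.58 and 13.50 in mVec, and was at least 2.08-fold higher in T (3.10 ± 0.20, limma adjusted p = 0.000138). Naaa and Bloc1s1 were named for the size of their rise. Naaa, a lysosomal amidase, was 6.26-fold higher in T (2.65 ± 0.22, adjusted p = 0.0004). Bloc1s1, a subunit of complexes that position lysosomes and build related organelles, was 6.47-fold higher (2.69 ± 0.24, adjusted p = 0.000586). The vector line lay above both mutant lines for Lipa and Bloc1s1 and between them for Naaa. Xbp1, the transcription factor of the unfolded protein response, was at 14.11 and 14.20 in T and 12.12 and 12.40 in PT (1.89 ± 0.21, adjusted p = 0.00141). Of 25 lysosome genes 2 were called higher in T and 0 lower (median 0.39, 19 with a higher value in T). Of 18 endoplasmic reticulum chaperone genes 2 were called higher and 1 lower (median 0.25, 15 with a higher value in T), and 5.97% of all genes were called higher. The lysosome count was 1 without T replicate 2, PT replicate 1 or PT replicate 2, and the chaperone count 1 without PT replicate 1. Gpnmb, a glycoprotein of melanosomes and lysosomes, read 13.79 and 13.84 in T, against 12.77 and 12.92 in PT and 15.29 and 15.25 in mVec (0.97 ± 0.20, adjusted p = 0.0173). The call of Gpnmb did not survive leaving out T replicate 2 (adjusted p = 0.0817), PT replicate 1 (0.112) and PT replicate 2 (0.0624), in a range from 0.000757 to 0.112.

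Lineage and inflammatory regulators added further single differences. Sox9, a neural crest transcription factor, had log2 values of 12.96 and 12.77 in T, against 14.60 and 14.52 in PT and 12.97 and 12.78 in mVec, and fell by 1.70 ± 0.20 in T (limma adjusted p = 0.0021). The T arrays coincided with the vector line, and PT stood above both. Pmp22, a membrane protein of Schwann cells, was 3.27-fold higher in T (1.71 ± 0.20, adjusted p = 0.00176). Casp4, the inflammatory caspase that senses cytosolic lipopolysaccharide, read 11.86 and 11.51 in T, against 8.79 and 8.84 in PT and 11.23 and 11.07 in mVec, and was at least 6.38-fold higher in T (2.87 ± 0.21, adjusted p = 0.000235). Traf1, an adaptor induced by NF-kappaB, was lower in T, at 8.86 and 8.92 against 10.65 and 11.29 in PT (-2.08 ± 0.24, adjusted p = 0.00188), while the NF-kappaB target Birc3 was 1.30 ± 0.20 higher. In that list of 25 genes 4 rose and 4 fell, or 32% called against 8.77% over all genes. Both counts became smaller on leaving out any single T or PT array.

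Interferon genes were called between the mutant lines at 12.9% and class I antigen presentation genes at 5.88%, against 8.77% over all genes. Many of them were at background. Of 31 interferon-stimulated genes, 3 rose and 1 fell in T (median -0.14), and 2 of these calls were of genes at background in both lines. Of the 31, 24 were at background in both lines, while 23 were above it in mVec. Ifit3, an antiviral protein, stood at 6.26 and 6.09 in T and 6.57 and 6.30 in PT, against 15.22 and 15.60 in mVec. Bst2, which tethers virions to the membrane, was above background in both mutant lines but not called (-0.56 ± 0.20, limma adjusted p = 0.124). The higher count was 1 without T replicate 1, PT replicate 1 or PT replicate 2, 2 without T replicate 2 or either mVec array, and the 1 fall was lost without PT replicate 1 or PT replicate 2. Of 17 class I antigen presentation genes, 1 rose and 0 fell (median 0.48, 15 with a higher value in T). That rise, of a gene at background in both lines, was lost without PT replicate 1.

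**Figure D4:**
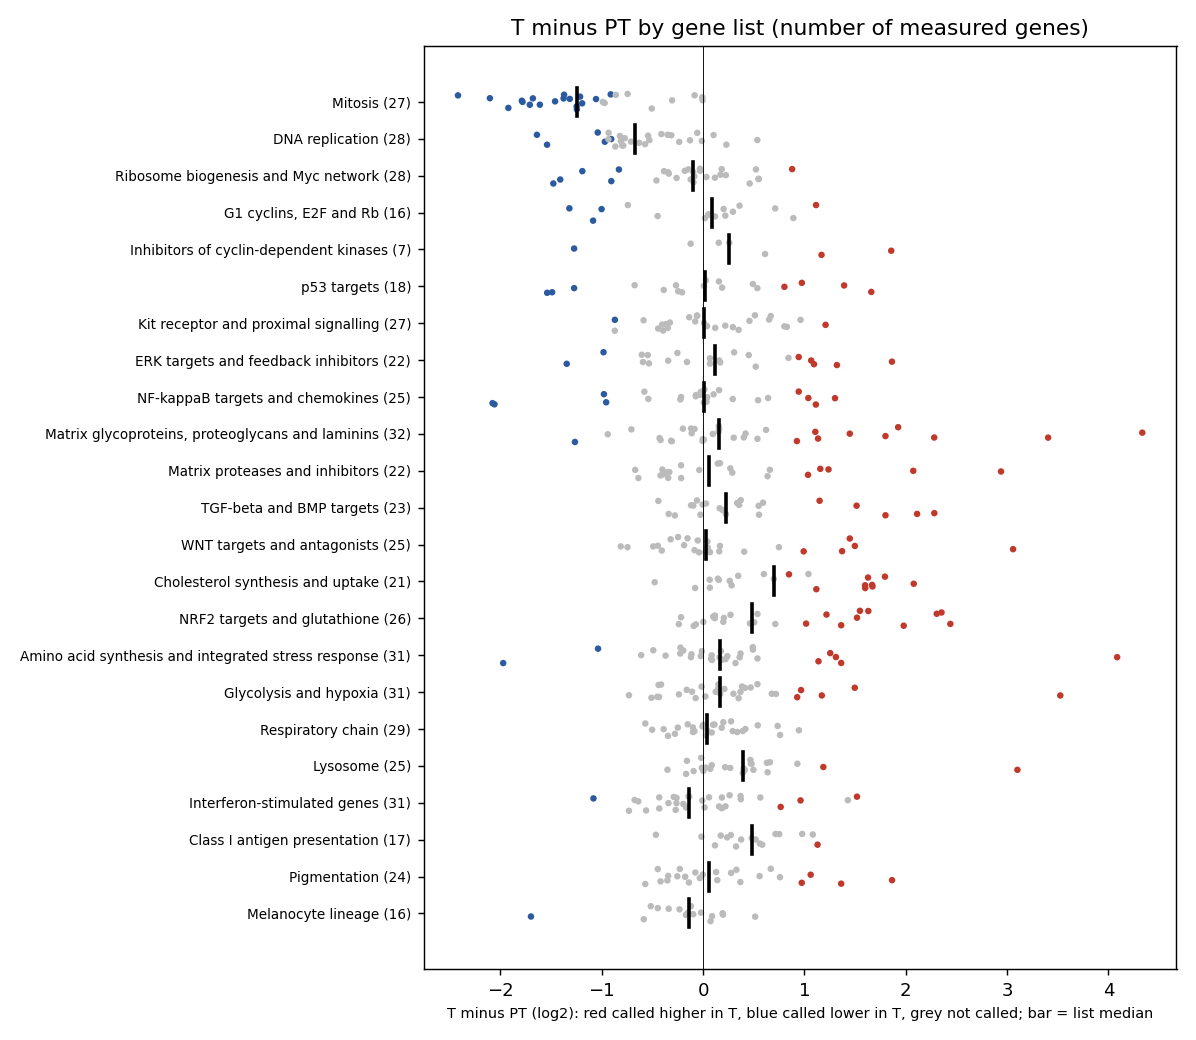
T minus PT log2 differences of the measured genes in 23 of the lists, with the number of genes in brackets. Red points were called higher in T, blue lower and grey not called, the black bar is the median of the list, and the vertical spread of points has no meaning. The mitosis median is -1.25 and the cholesterol median 0.70.

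The vector line lay mostly on the T side of these differences. Of the 1164 genes higher in T, both mVec arrays were above T and PT for 670 (57.6%), between them for 145, below both for 150, and overlapped with an array of a mutant line for 199. Of the 546 genes lower in T, both mVec arrays were below T and PT for 341 (62.5%), between them for 73, above both for 38 and overlapping for 94. T thus stood between PT and the vector line, on all arrays, for 1011 of 1710 called genes, or 59.1%, and PT between T and the vector line for 188, or 11%. By means, mVec was nearer T than PT for 74.7% of the genes called higher in T, 82.2% of those called lower and 57.5% of all genes. Among genes not called whose T and PT arrays did not overlap, mVec was above both for 35.6% of those with a higher value in T and below both for 32.1% of those with a lower one. The vector arrays entered the estimate of the spread but not the T minus PT difference itself.

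**Figure D5:**
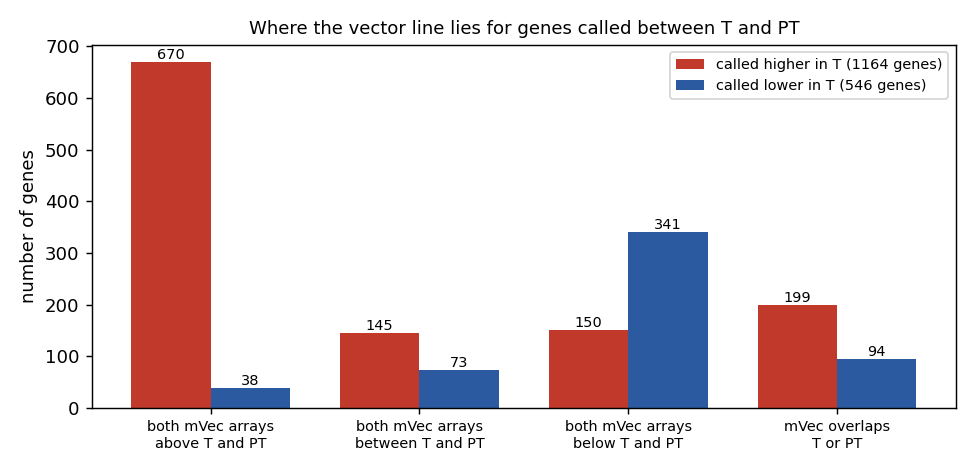
Number of genes called between T and PT by the place of the 2 mVec arrays, in red for genes called higher in T (1164) and in blue for genes called lower in T (546). The tallest bars are 670 genes with mVec above both lines and 341 with mVec below both.

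A smaller set of genes set T apart from both other lines. Phgdh, Aldoc, Fscn1 and Mamdc2, a matrix protein with MAM domains that was at least 3.56-fold higher in T, were at background in PT and mVec and above it in T. Naaa was higher in T than in either of the others, with mVec between and nearer PT. Casp4 was also highest in T, but mVec, at 11.23 and 11.07, lay nearer T, so that PT was the line apart. Npnt, a matrix ligand of integrins, differed the other way, at 7.91 and 7.23 in T and 9.94 and 9.80 in PT, and at 13.69 and 13.74 in mVec. It was at least 2.05-fold lower in T (-2.30 ± 0.25, limma adjusted p = 0.00144), the 1 gene among the 8 brightest genes on in PT for which the vector line lay above both. Dram1, a lysosomal membrane protein induced by p53, had the more frequent order, with 8.28 and 8.37 in T, against 10.31 and 10.36 in PT and 4.70 and 4.88 in mVec.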

How the data were processed

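RNA of 6 samples was measured on Affymetrix Clariom S mouse arrays. The deposited values are log2 expression levels, normalized by the authors, 1 per probe set and array. No source used here gives the software, background correction, normalization or genome build. Of 28846 probe sets, 6640 controls were left out. The platform table gave 1 symbol for 19572 of 22206 gene probe sets and none for 2634.

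With R 4.3.3 and limma 3.58.1, all 6 arrays were fitted in 1 linear model, each of the 3 lines having its own mean (3 residual degrees of freedom, prior 6.36), without a filter or a trend. P-values are two-sided, adjusted by the Benjamini-Hochberg method over 22206 probe sets. The script was tested on simulated data. Precision is limited by the 2 arrays per group.

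The members and the 53 gene lists, of which 1095 genes were measured, were chosen with earlier results of these data known. Named genes are a fixed set, the 10 largest rises and falls above background in both lines, the 8 brightest genes on in 1 line only, and up to 4 called members of each list. Members without a call, those at background in both lines and the histones were named after their values were seen. Replicate numbers were not used as pairs. Ccnd1 is not analysed here. Promoters are from RefSeq, GRCm38.p6.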

Additional observations from a re-analysis of the deposited data

Results flagged for a closer look

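For 3 of the named genes the mutant lines were called on opposite sides of the vector line. Pdha1, of pyruvate dehydrogenase, was 1.03 higher than mVec in T and -1.88 from it in PT, so that T minus PT was 2.90 on the log2 scale. Actn1, an actin cross-linker, was -1.07 from mVec in T and 1.39 higher in PT, with a T minus PT difference of -2.46. Lpin1, a phosphatidate phosphatase of lipid synthesis, was 0.82 higher than mVec in T and -0.78 from it in PT, a difference of 1.60, with PT at background. Over all genes, 22 called between T and PT had calls on opposite sides of mVec by limma. Both contrasts with mVec share its 2 arrays.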

How the results depend on the processing

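Of the 22206 probe sets, 1857 were called between T and PT. The count was 1357 with the 4 mutant arrays alone, a fit with the same calls as that without either mVec array, 1800 after centring, 1748 after quantile normalization (58.8% higher in T, against 67.7%), 2537 with an intensity trend, and 2583 and 2471 with the filters on low values. With the trend, 950 were called lower in T, in place of 599, and the cause was not tested. With replicate number as a block the count was 1819, of which 1656 were among the 1857. The numbers were not used as pairs, because deviations of equal numbers correlated at 0.082 between T and PT, 0.043 between T and mVec and 0.04 between PT and mVec. The block changed the call of some single genes, among them Mad1l1 and Xiap. Leaving out 1 array gave 549 to 1714 calls, 370 to 1119 higher, 176 to 595 lower and 549 to 1665 at least 2-fold apart, where the lone array is taken to vary like the others. Without PT replicate 2, 78.0% of calls were higher in T. Of 123 called named genes, 65 were called in every alternative, and 58 lost the call in at least 1. Genes on in T and off in PT numbered 178 to 254 at other background limits, and the reverse 63 to 88. The limit at the highest GC background control (197 and 88) was chosen after seeing the data. With 2 arrays a line, and 517 called genes at background in both lines, small differences and dim genes are the least certain.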

Other observations

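Some guidance genes of axons and vessels were called in each direction. Nrp2, a receptor for class 3 semaphorins and VEGF, had log2 values of 11.03 and 10.54 in T, against 12.38 and 12.37 in PT and 13.54 and 13.52 in mVec, and was lower in T (-1.59 ± 0.23, limma adjusted p = 0.00396). Sema4c, a membrane semaphorin, was at least 1.13-fold higher in T (1.50 ± 0.22, adjusted p = 0.00506), with mVec above both lines. Of 36 semaphorin, plexin and guidance genes, 5 were called higher and 3 lower, or 22.2% against 8.77% of all genes. Among these calls, 5 were of genes at background in both lines, as were 25 of the 36. The higher count was 3 and the lower count 1 without T replicate 2, PT replicate 1 or PT replicate 2. Pde4b, a phosphodiesterase that breaks down cAMP, read 10.92 and 10.88 in T and 12.43 and 12.34 in PT (-1.49 ± 0.21, adjusted p = 0.00407), with mVec below both. Dbp, a transcription factor driven by the circadian clock, was at least 1.17-fold higher in T (2.92 ± 0.27, adjusted p = 0.000771), with 2 of 18 clock genes called (11.1%, near the 8.77% of all genes), and 1 without T replicate 2, PT replicate 1, PT replicate 2 or either mVec array. By chromosome, the median T minus PT difference of genes above background in both lines ran from -0.14 on chromosome 7 to 0.22 on chromosome 10, over 323 and 295 genes. The next highest median was 0.10, on chromosome 3, and of all genes measured on chromosomes 7 and 10, at background or above, 5.93% and 12.1% were called.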
